A study of Salmo salar with 45 samples.

Results

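The gene described here is *ckba* (ENSSSAG00000003466), brain-type creatine kinase, chosen as 1 of the 69389 genes counted in the distal intestine of 45 Atlantic salmon (*Salmo salar*). It was measured by RNA-seq in 9 fish from each of 5 dietary groups. All fish were pre-smolts of the AquaGen Atlantic QLT-innOva SHIELD strain, kept in fresh water and fed for 61 days. The control group (CD) received the basal diet alone. The product Feed LP20, in which heat-killed *Lactiplantibacillus plantarum* strain L-137 (HK L-137) is blended with a larger part of tapioca dextrin, was mixed into each kg of feed. The amount of this product, not of the bacteria alone, was 20 mg for LP20, 100 mg for LP100 and 500 mg for LP500. The positive control group (MG) received 2 g of β-glucan per kg feed. Ages and sexes were not given in the sources used here. The distal intestine was opened and the digesta scraped off before RNA was taken, so every library holds epithelium, connective tissue and muscle together. In such tissue, fewer cells of a type and less RNA per cell cannot be told apart.

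Creatine kinases move a phosphate group between ATP and creatine, which lets a cell hold a reserve of phosphocreatine and replace ATP quickly where it is used. The family has cytosolic brain-type and muscle-type enzymes and mitochondrial enzymes. In mammals and birds the brain-type enzyme is known from brain, smooth muscle and the brush border of the intestinal epithelium, so that muscle and epithelium are both possible sources in a piece of intestine. The questions put to the data were how high *ckba* stood, whether diet moved it, and whether it followed *acta2* (ENSSSAG00000044179), the actin of smooth muscle, or *cubn* (ENSSSAG00000073177), cubilin, an endocytic receptor of enterocytes.

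In Ssal_v3.1, *ckba* lies on the plus strand of chromosome 1 from 30976792 to 30990081, with 9 exon blocks that total 4790 bases. The symbol was taken from the RefSeq gene of the same position, which shared 0.955 of their joint span. *Acta2* is a minus-strand gene at 49378761 to 49393630 of chromosome 19, and it matched its RefSeq gene less closely, at 0.532 of the joint span. *Cubn* is a plus-strand gene at 15261821 to 15316649 of chromosome 19, with a joint share of 0.996. Fragments counted on genes ranged from 9660750 to 22377591 per fish (median 14634308), and no fish was left out. The markers of an intestinal piece were present, with median levels of 853 TPM for the enterocyte cadherin *cdh17*, 900 TPM for the goblet cell gene *agr2* and 595 TPM for *acta2*. TPM is a level per exon length, scaled to the same total in each fish.

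*Ckba* was an abundant transcript of the distal intestine in every fish. Its mean level over the 45 fish was 607 ± 64.0 TPM (SD, n = 45), with a lowest value of 417, a median of 615 and a highest of 778 TPM. This was the 203rd highest mean TPM among the 69389 genes, and its place in single fish ran from 161st to 342nd. By fragments alone it was 77th, with 9666 to 24655 counts per fish. *Cubn* stood at 756 ± 101 TPM and *acta2* at 745 ± 507 TPM, so the 3 genes had mean levels per length within the same range while their spreads differed.

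The 3 other creatine genes that could be matched by symbol were far lower. *Ckmb*, a muscle-type creatine kinase, had a count of 0 in 37 of 45 fish and a mean of 0.133 TPM. *Ckmt2*, the mitochondrial enzyme of striated muscle in mammals, had 0 to 15 counts and a mean of 0.379 TPM. Both were too low to be tested between diets. *Slc6a8*, which carries creatine into cells, had 28.7 ± 8.64 TPM (10.4 to 58.6), or 4.74% of the *ckba* level. Its r with *ckba* within diets was -0.09, which is a description over 45 fish of the same libraries. Differences of *slc6a8* from CD were -0.47 ± 0.19 (SE) log2 units in LP100 and -0.42 ± 0.19 in LP500, and neither passed edgeR's test (adjusted p = 0.146 and 0.147). The synthesis genes gatm and gamt were looked for by symbol and had no match. Of the creatine kinase symbols looked for, 3 were matched, with *ckba* among them. Copies without such a symbol were not looked at. Of the adenylate kinases, which pass phosphate between adenine nucleotides, 6 were matched and 5 could be tested. The highest was *ak6* at 34.4 TPM, and 1 of the 5 passed in any of the 10 comparisons between diets. *Ak9*, which had 16 to 61 counts per fish, fell by 0.55 ± 0.18 (SE) log2 units in LP500 against CD (adjusted p = 0.0396), where 10.7% of all tested genes were called.

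**Figure D1:**
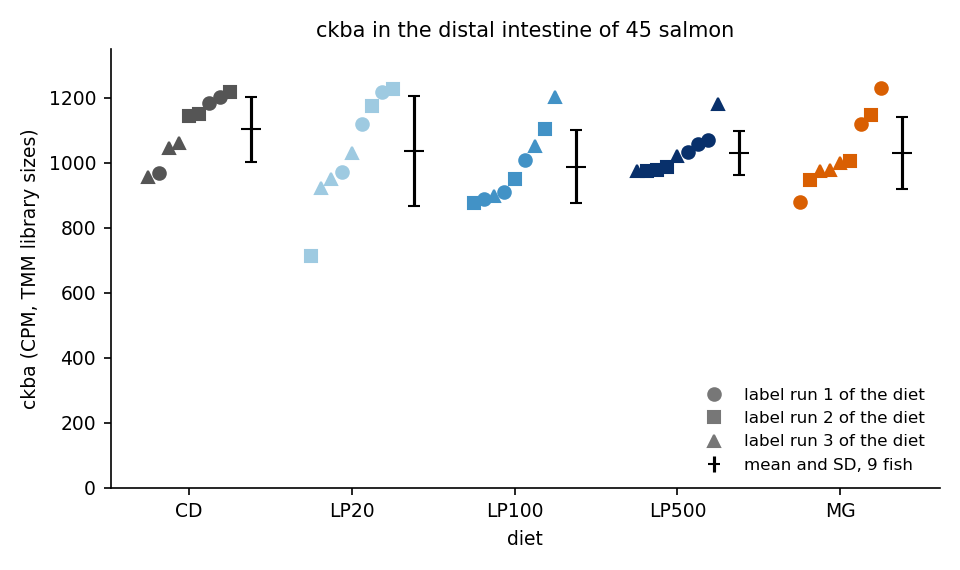
Level of *ckba* in each fish, in CPM (counts scaled to library size) with TMM library sizes, by diet. Each point is a fish, its shape is the run of 3 consecutive fish numbers within the diet, and the black mark is the mean with the SD of 9 fish. The 5 groups overlap, and LP20 fish A056 lies lowest at 713 CPM.

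Between fish, CPM with TMM library sizes were compared. CPM is a count scaled to a fixed library total, and TMM adjusts the library totals for differences in composition. In the CD group *ckba* had a lowest value of 955, a median of 1146 and a highest of 1218 CPM. In LP20 these values were 713, 1030 and 1228 CPM. In LP100 they were 878, 950 and 1204 CPM. The LP20 and LP100 medians lay below that of CD, and fish of all 3 groups overlapped. In LP500 the values were 974, 1021 and 1182 CPM, and in MG 879, 1001 and 1229 CPM. The lowest CD fish stood above the LP100 median, and the highest fish of all came from MG (A008).

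Ordered by their means, the groups were CD (1104 ± 99.1 CPM, SD, n = 9), LP20 (1037 ± 168), MG (1032 ± 111), LP500 (1032 ± 67.2) and LP100 (988 ± 113). No neighbours in this order differed by more than the SD of either group. The ends, CD and LP100, differed by more than either SD with overlapping fish, and their difference did not pass the edgeR test (adjusted p = 0.277). From the lowest fish to the highest the level moved 1.73-fold, against 2.27-fold for *cubn* and 12.4-fold for *acta2*. The coefficient of variation over the 45 fish was 11.3% for *ckba*, 14.5% for *cubn* and 67.3% for *acta2*. Counting error alone was 1.02% for *ckba* in the fish with its lowest count, so nearly all of this spread was between libraries.

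*Ckba* was also steady for its level. Its SD of log2 CPM within diets was 0.17, where the 61 tested genes within 0.5 log2 units of its level had a median of 0.22, and 12 of those 61 (19.7%) had a smaller SD. *Acta2* was at the other end, with an SD of 0.71, and 96.3% of the 188 genes near its level varied less. Of the sum of squares of *ckba*, 73.9% lay between fish of the same run of 3 consecutive fish numbers, 16.1% between the runs of a diet, and the rest between diets. These parts had 30, 10 and 4 degrees of freedom. Most of the sum would thus lie between fish even without any effect of run or diet. The labels do not say whether a run is a tank.

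No diet changed the level of *ckba* past the test. The edgeR quasi-likelihood test was fitted to all 45 fish and adjusted by Benjamini-Hochberg over 31729 genes at 0.05. The LP100 group had the largest difference from CD, -0.16 ± 0.080 (SE) log2 units or -10.5%, with a 95% interval of -0.32 to 0.0020 and an adjusted p of 0.277 (unadjusted p = 0.0528). In LP100, 8 of 9 fish lay below the CD mean, and 5 lay below every CD fish. Among all tested genes 4.07% (1292) were called in this comparison. That background moved with the fit, with 15 genes called on counts summed per run of fish numbers, 0 with *acta2* as a covariate and 3593 with DESeq2 on the 18 fish, while *ckba* was not called in any of them. An exact permutation of the 18 fish gave a two-sided p of 0.0348 for LP100 against CD, which was 0.348 after adjustment over the 10 comparisons.

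In LP500, where 10.7% of all tested genes were called, *ckba* differed from CD by -0.10 ± 0.080 log2 units (-0.26 to 0.06, adjusted p = 0.482). There 8 of 9 fish lay below the CD mean, but none lay below the lowest CD fish. In LP20 the difference was -0.09 ± 0.080 log2 units (-0.25 to 0.07, adjusted p = 0.717), and without the lowest fish, A056, it was -0.04 (adjusted p = 0.916). In MG it was -0.10 ± 0.080 log2 units (-0.26 to 0.06, adjusted p = 0.845). With edgeR, 0% of the tested genes were called in LP20 and in MG, while 4086 and 2265 genes had an unadjusted p under 0.05. DESeq2 called 180 genes in LP20 and 0 in MG on all fish, and 807 and 2 on the 18 fish of each comparison, and *ckba* was not among them. These 4 differences share the same CD fish, so their common direction is no independent evidence.

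The 6 differences between groups with an additive were smaller than any of those from CD. LP100 differed from LP20 by -0.07 log2 units (-0.23 to 0.09), LP500 from LP20 by -0.0073 (-0.17 to 0.15) and LP500 from LP100 by 0.06 (-0.10 to 0.22). Against MG the differences were 0.0072 log2 units for LP20 (-0.15 to 0.17), -0.06 for LP100 (-0.22 to 0.10) and -0.00013 for LP500 (-0.16 to 0.16). All 6 had adjusted p-values of 0.836 or more, in comparisons where edgeR called 0% of genes. These p-values do not show that the groups were alike. In percent, the interval for LP500 against MG ran from -10.6% to 11.8%.

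Over the order of the inclusion levels (CD, LP20, LP100, LP500, 36 fish), *ckba* moved by -0.04 ± 0.025 (SE) log2 units per step (adjusted p = 0.400), where 10.7% of the 31213 genes tested were called. On the same scale *acta2* rose by 0.44 ± 0.10 log2 units per step (adjusted p = 0.00844). In LP500 against CD, *acta2* rose by 1.41 log2 units (adjusted p = 0.00731), its only call among the 10 comparisons, and *cubn* was called in none. The *ckba* estimates had the opposite sign, and the part of muscle content in them was not tested beyond a covariate. With *acta2* (log2 CPM) as a covariate, the *ckba* difference from CD became -0.10 ± 0.086 (SE) in LP100. For LP500 it became -0.03 ± 0.089, and the slope became 0.0026 ± 0.028. These fits called 0 of all tested genes in either comparison and for the slope. *Acta2* itself differed with diet, so this covariate cannot tell muscle content and diet apart.

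**Figure D2:**
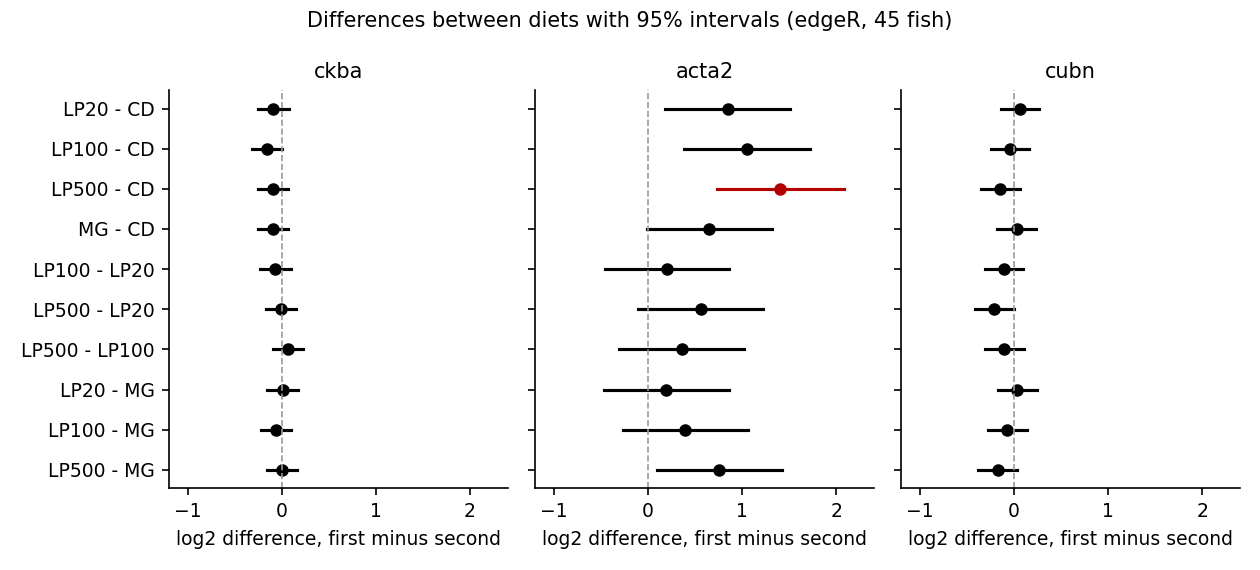
Differences in log2 units between diets, first minus second, for *ckba*, *acta2* and *cubn*, from the edgeR fit of 45 fish. Points are estimates, lines are 95% intervals, and red marks an adjusted p below 0.05, which only *acta2* in LP500 against CD reached. All 10 *ckba* intervals include 0, that of LP100 against CD by 0.0020 log2 units.

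Across fish, *ckba* did not rise with the muscle gene. Over the 45 fish Pearson's r of log2 CPM with *acta2* was -0.33 (permutation p = 0.0253, adjusted p = 0.076 over 30 relations), and Spearman's rho was -0.40 (permutation p = 0.00701, adjusted p = 0.0421). Without the fish farthest from the *acta2* median, A013 of LP500 and A045 of MG, r was -0.44 (adjusted p = 0.0249). With diet means subtracted, r was -0.25 (permutation p = 0.116, adjusted p = 0.218) and rho -0.32 (adjusted p = 0.108). The relation thus passed by ranks over all fish, taken as replicates, and not within diets. On means of the 15 runs of fish numbers, r was -0.44 (permutation p = 0.103, adjusted p = 0.218). With diet means subtracted, the r of these run means was -0.06 (permutation, adjusted p = 0.860). Within single diets of 9 fish r was -0.46 in CD, -0.40 in LP20, -0.51 in LP100, -0.31 in LP500 and 0.26 in MG, and none passed an exact permutation test of r (smallest adjusted p = 0.273). By ranks, rho was -0.62 in CD, -0.67 in LP20, 0.07 in LP100, -0.33 in LP500 and 0.15 in MG (exact permutation, smallest adjusted p = 0.147), so the LP100 value turned sign. In fish A013, where *acta2* reached its highest level of 2565 CPM, *ckba* stood at 1034 CPM, close to the median of all fish.

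The relation to the enterocyte gene was positive and weak. With *cubn*, r was 0.24 over 45 fish (permutation p = 0.115, adjusted p = 0.218) and rho was 0.11 (adjusted p = 0.671). Within diets r was 0.25 (adjusted p = 0.218) and rho 0.06 (adjusted p = 0.749). Without the fish farthest from the *cubn* median, A013 and A056, r was 0.12 over all fish and 0.06 within diets. Without A056 alone it was 0.11 and 0.05 within diets, and without A013 alone 0.28 and 0.29. The positive values thus rested largely on A056. In single diets r ranged from -0.14 in CD to 0.61 in LP20, and none passed an exact permutation test (smallest adjusted p = 0.218). Among fish of the same diet, *ckba* moved by -0.06 log2 units per doubling of *acta2* and by 0.19 per doubling of *cubn*. *Acta2* alone went with 6.03% of the variance of *ckba* within diets, *cubn* with 6.31% and both with 9.69%. *Acta2* and *cubn* had an r of -0.33 with each other over all fish.

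**Figure D3:**
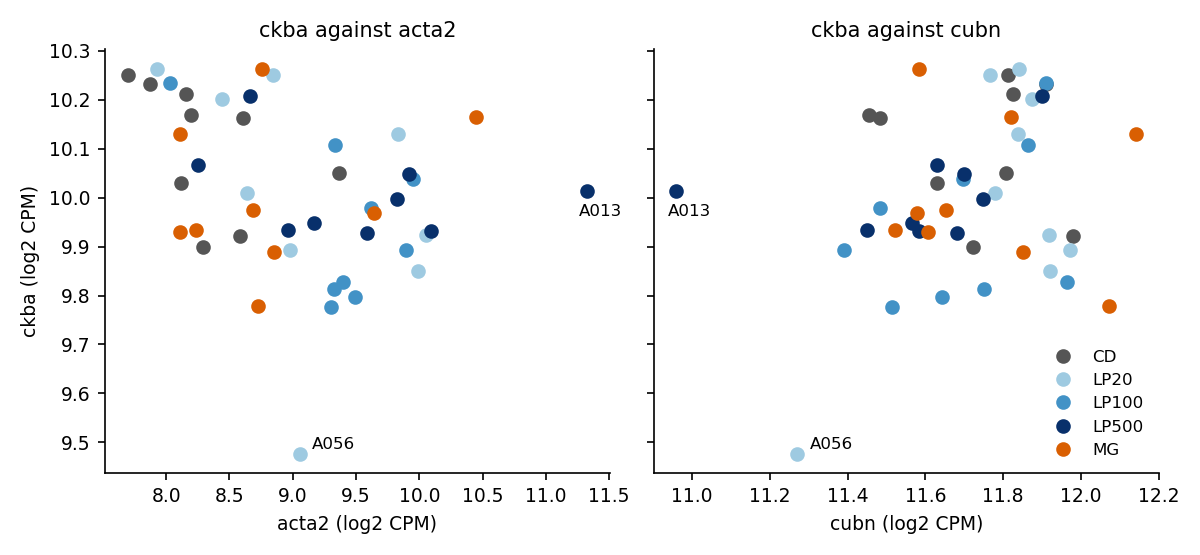
Level of *ckba* (log2 CPM) against *acta2* (left) and *cubn* (right), 1 point per fish and coloured by diet. Fish A013 has the highest *acta2* and the lowest *cubn* with a middle *ckba* level, and fish A056 has the lowest *ckba* with the second lowest *cubn*.

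The scale of the values bore on these relations. With library totals in place of TMM library sizes, r with *acta2* was -0.11 and with *cubn* 0.05 over 45 fish. *Ckba* on the TMM scale itself had an r of -0.37 with the log2 TMM factor (permutation p = 0.0134, adjusted p = 0.0669). Without the 2 fish farthest from the median this r was -0.27. The TMM scale divides by that factor, so a negative r is partly built in and the permutation p cannot test a relation. The r of *ckba* with the log2 total count was -0.08.

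Lists of marker genes gave the same signs as the single genes. Only part of each written list could be matched by symbol. With *cubn* and *acta2* counted, this was 9 of 24 enterocyte genes and 7 of 25 smooth muscle genes. For endothelium it was 4 of 9, for fibroblasts and matrix 4 of 9, and for enteric neurons and glia 6 of 15. The enterocyte list without *cubn* (8 genes, among them *cdh17*, the megalin gene *lrp2b* and the ezrins *ezra* and *ezrb*) had an r with *ckba* of 0.44 over 45 fish (permutation p = 0.00332, adjusted p = 0.0332) and 0.40 within diets (adjusted p = 0.0427). Spearman's rho was 0.45 (adjusted p = 0.0421) and, within diets, 0.33 (adjusted p = 0.108). Without fish A056 the r fell short of the threshold, at 0.37 (adjusted p = 0.0669) and 0.31 within diets (adjusted p = 0.116). With library totals it was 0.29 on both counts (adjusted p = 0.152 and 0.162). The members did not move as 1 block. Within diets r was 0.57 for *lrp2b*, 0.48 for *ezrb* and 0.36 for *ezra*, but -0.06 for *cdh17*, -0.19 for the glucose transporter *slc5a1* and -0.38 for the meprin *mep1bb*, and 5 of 8 were above 0. *Lrp2a* had a median of 8 counts.

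The smooth muscle list without *acta2* (6 genes) had an r of -0.26 (permutation p = 0.0806, adjusted p = 0.215) and -0.17 within diets (adjusted p = 0.421), and 1 of its 6 genes, *smtnb*, had an r above 0 within diets. Lists of the connective tissue were lower. The endothelium list (4 genes, with *pecam1b* lowest at a median of 0.465 TPM) had an r of -0.47 (permutation p = 0.00082, adjusted p = 0.0246) and -0.43 within diets (adjusted p = 0.0587). Its members had low counts, with medians of 18 for *pecam1b*, 25 for *vwf*, 51 for *pecam1a* and 147 for *plvapb*. The fibroblast and matrix list (4 genes) had an r of -0.44 (permutation p = 0.00216, adjusted p = 0.0324) and -0.37 within diets (adjusted p = 0.0678), and without its 2 farthest fish -0.37 over all fish (adjusted p = 0.0676). Spearman's rho was -0.42 for endothelium and -0.41 for fibroblasts and matrix (permutation, both adjusted p = 0.0421). Within diets rho was weaker, at -0.31 (adjusted p = 0.134) and -0.26 (adjusted p = 0.198). All 8 genes of both lists had an r below 0 within diets, from -0.30 to -0.50 for endothelium and from -0.34 to -0.39 for fibroblasts and matrix. On library totals, r was -0.28 for endothelium and -0.21 for fibroblasts and matrix, and neither passed (adjusted p = 0.203 and 0.284). The enteric neuron and glia list (3 genes, with *elavl4*, *snap25a* and *plp1a* at or near 0 counts and not tested) had an r of -0.35 (permutation p = 0.0201, adjusted p = 0.0678) and a rho of -0.41 (adjusted p = 0.0421). Within diets its r was -0.28 (adjusted p = 0.215), and of its members *stmn2b* (median of 39 counts) had an r of -0.36, *ret* 0.03 and *elavl3* 0.21. The enteroendocrine list (3 genes) had an r of -0.05.

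**Figure D4:**
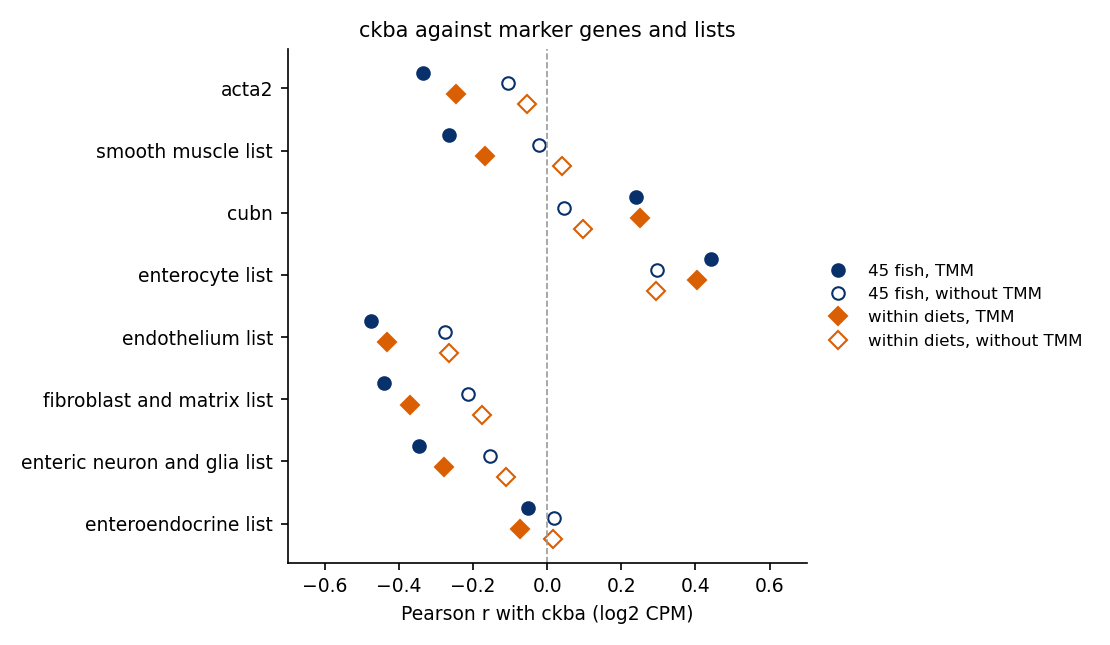
Pearson's r of *ckba* (log2 CPM) with *acta2*, *cubn* and 6 marker lists over 45 fish (circles) and after subtracting diet means (diamonds). Filled symbols use TMM library sizes and open symbols library totals. The enterocyte list lies highest, at 0.44, and the endothelium list lowest, at -0.47. Open symbols lie nearer to 0 or across it in all 8 lines.

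Fish A056 of LP20 shows how these values met in 1 library. It had the lowest *ckba* level of the 45 fish, 713 CPM, and its *cubn* and its enterocyte list were both second lowest of 45. Its endothelium list was the 43rd of 45 from the lowest, its *acta2* the 25th and its smooth muscle list the 18th. The fibroblast and matrix list of this fish was the 28th, its enteric neuron and glia list the 28th and its enteroendocrine list the 6th. The part of tissue composition in the level of *ckba* was not tested.

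The gene most like *ckba* was its neighbour on the opposite strand. Among 31728 other tested genes, the highest r within diets was that of *mark3a* (ENSSSAG00000003552), at 0.96 over 45 fish. *Mark3a*, a microtubule affinity-regulating kinase, lies on the minus strand from 30986547 to 31020380. Its last exon block of 4350 bases covers the end of *ckba*, and 1073 exon bases belong to both genes, which is 22.4% of the exon length of *ckba* and 12.9% of that of *mark3a*. *Mark3a* had 6027 to 15238 counts per fish. Its count was 62.3% ± 1.95 (SD, n = 45) of the *ckba* count, with a lowest value of 53.7% and a highest of 65.8%. The ratio of the 2 genes thus varied by 3.13%, against 11.3% for *ckba* itself. The other related kinases were less like *ckba*, with an r within diets of 0.42 for *mark2a*, 0.29 for *mark2b* and 0.08 for *mark1*.

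Other genes also lie at this place. The unnamed minus-strand gene ENSSSAG00000111799, which overlaps the span of *ckba* from 30929413 to 30979777 but shares 0 exon bases with it, had 77 to 260 counts and an r of -0.07 within diets. The small minus-strand gene ENSSSAG00000003482 (258 exon bases, of which 222 lie in exons of *ckba* and all 258 in exons of *mark3a*) had 0 counts in every fish. Fragments on several genes were not counted, and *mark3a* is on the same strand. A count of 0 was therefore set by the annotation and does not show whether this gene was expressed. The authors' counting was set to reverse-stranded fragments, and the kit of the libraries was not given in the sources used here. Whether the libraries keep the strand of the RNA was not settled here. How much of the count of either gene came from RNA of the other was not tested. The counts, TPM and ranks given for *ckba*, and for other genes with exons on both strands, are uncertain to that extent. So are their diet differences, spreads and correlations, which rest on the same counts. *Mark3a* gave differences between diets close to those of *ckba*, with -0.13 ± 0.083 (SE) log2 units in LP100 against CD (adjusted p = 0.403) and -0.10 ± 0.083 in LP500 against CD (adjusted p = 0.493).

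The pattern was general among overlapping genes, in a count added after the value of *mark3a* was seen. There were 1580 pairs of tested genes on opposite strands with at least 500 shared exon bases and a mean of at least 100 counts in each gene. Their median r within diets was 0.63, and 94.0% of the pairs were above 0. In 5954 pairs of next neighbours on opposite strands whose spans did not overlap, the median was 0.03 and 54.3% were above 0. An r above 0.9 was found in 269 overlapping pairs and in 7 neighbouring pairs, and 101 overlapping pairs reached that of *ckba* and *mark3a* or more. These are correlations across the same 45 libraries, given as a description.

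**Figure D5:**
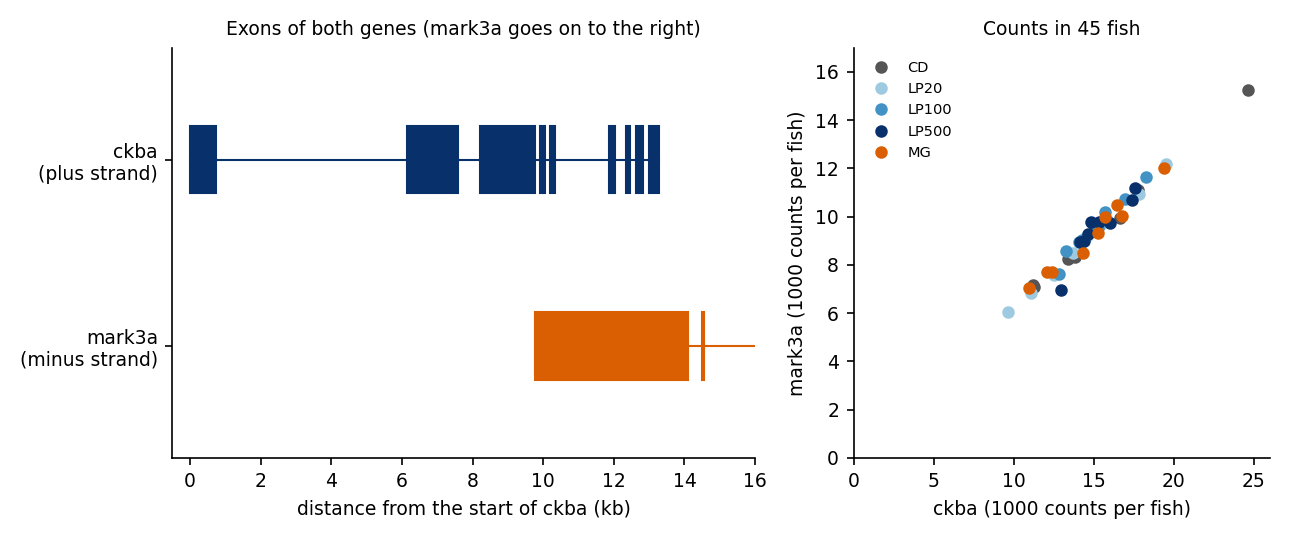
Left, exon blocks of *ckba* and of the nearer end of *mark3a* by distance from the start of *ckba* in kb, where the 4350-base block of *mark3a* covers the end of *ckba*. Right, counts of both genes in 45 fish on linear axes from 0, coloured by diet, where *mark3a* follows *ckba* at 62.3% of its count.

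Of the 31728 genes, 7005 had a symbol that was not a LOC number, and only these could be named here. Beyond *mark3a*, the 9 of them with the highest r were spread over 5 chromosomes. These were *eeig1b* (0.80), *coq4* of coenzyme Q synthesis (0.78), the inhibitory G protein subunits *gnai2b* (0.78) and *gnai2* (0.76), *cox4i1l*, named for a subunit of cytochrome c oxidase (0.77), *lmod3*, a leiomodin (0.77), *ldlrad2* (0.73), the homeobox gene *hoxa13* of the posterior body (0.73) and *ud2a2* (0.71). Their r without fish A056 lay between 0.56 for *ud2a2* and 0.75 for *cox4i1l*. *Eeig1b* and *coq4* lie on the same chromosome as *ckba* but far from it. They start at 158605059 and 142591951, where *ckba* ends at 30990081. Of these genes, *cox4i1l* had the highest level, 893 TPM, and *ldlrad2* the lowest, 5.69 TPM. The 5 named genes with the lowest r were *gemin5* (-0.72), *ttyh3a* (-0.69), *aadac* (-0.60), *zgc:110045* (-0.60) and *igsf8* (-0.60). Without fish A056 their r was, in the same order, -0.60, -0.55, -0.53, -0.46 and -0.45. None of these 14 genes, nor *mark3a*, was called between any diets, where the share of all tested genes called was 0% in 8 of the 10 comparisons, 4.07% in LP100 and 10.7% in LP500 against CD.

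For scale, the median r of the 31728 genes with *ckba* was -0.02, with 556 genes above 0.5 and 242 below -0.5. *Cubn* had a higher r than 87.2% of the genes and *acta2* a higher r than 15.2%. Neither gene named in the question was therefore among those nearest to *ckba* in these fish.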

How the data were processed

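The authors deposited raw counts per gene for 45 fish, made with nf-core rnaseq, the Ssal_v3.1 assembly and featureCounts (Subread v1.5.1 in the submitters' processing notes), set to paired, reverse-stranded fragments per the file headers. Fragments on several genes or places are not counted by that setting. The labels name an RNeasy kit and the paper Qiazol for RNA extraction.

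Diets came from the labels and amounts from the paper. Symbols came from RefSeq by position, with at least 0.5 of the joint span shared (30322 genes). With RefSeq positions shifted by 100000 bases, 4728 genes still matched. Strand was not compared, so single symbols can be wrong. The counts were fitted in R v4.3.3 with edgeR v4.0.16, with TMM library sizes, its filter on low counts (31729 genes kept) and diet as the only factor. DESeq2 v1.42.0 was an alternative. The scripts were tested on simulated data. Relations used log2 CPM with a prior count of 2 and 100000 permutations (within diets where diet means were subtracted), or all 362880 orders in 9 fish, with Benjamini-Hochberg adjustment over 30 relations (Python v3.11, scipy). List values were means over members of log2 CPM minus the gene's mean over fish. Among the 7005 other tested genes with a symbol that was not a LOC number, the 10 with the highest r and the 5 with the lowest were named. The gene, the lists and the rules were chosen with earlier results of these data known. P-values over fish take them as replicates, although, per the paper, each diet was fed in 3 tanks with 3 fish taken per tank. Over the 990 pairs of fish, chi-square per gene was at least 8.07, so no library was counted under 2 labels.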

Additional observations from a re-analysis of the deposited data

Results flagged for a closer look

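In 15 groups of 9 fish (3 genes in 5 diets), 6 had a fish whose gap to the nearest other fish exceeded 0.493 of the range of its group. This limit flags about 1 in 20 groups where values are normally distributed. The rule was applied to CPM, whose distribution was not checked, and not to log2 CPM. The 6 flags can therefore not be set against that rate. For *ckba* it was the highest LP500 fish, A067, at 1182 CPM. For *cubn* it was the lowest LP20 fish, A056, at 2469 CPM, the fish that also had the lowest *ckba* level. For *acta2* it was 4 of the 5 diets, with fish A073 of CD at 661 CPM, A013 of LP500 at 2565 CPM and A045 of MG at 1399 CPM as the highest of their groups, and A061 of LP100 at 261 CPM as the lowest of its group.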

How the results depend on the processing

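None of 338 alternative fits of the 10 diet comparisons and the slope called *ckba* (smallest adjusted p = 0.136, LP100 against CD without LP100 replicate 7). Signs turned only where the difference was near 0 or with a covariate. LP500 against LP20 became 0.0207 log2 units with *acta2* as covariate, 0.0351 with *cubn* and 0.00852 in the exact permutation test, and ran from -0.0630 to 0.0399 with 1 fish or run left out. LP20 against MG became -0.0035 with *cubn* and -0.0040 in the exact permutation test, and ran from -0.0404 to 0.0625. LP500 against MG became 0.00042 with RLE size factors, 0.00027 with DESeq2 on all fish, 0.0381 with *acta2*, 0.0316 with *cubn* and 0.00450 in the exact permutation test, and ran from -0.0283 to 0.0479. The slope became 0.0026 with *acta2*. All 338 alternatives scaled the libraries with TMM, RLE or DESeq2 size factors, and none used library totals alone. Mean TPM of *ckba*, which uses no such factor, was 628 in CD, 598 in LP20, 587 in LP100, 613 in LP500 and 608 in MG. The size of the differences and the order of the groups thus depended on the scale.

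The r of *ckba* and *acta2* over all fish passed without the 2 farthest fish (-0.44), and with 1 run left out it ran from -0.40 to -0.27, passing only without run 2 of MG. Among alternatives chosen after seeing the data, library totals in place of TMM took the enterocyte list to 0.29 over all fish and within diets, the fibroblast and matrix list to -0.21, the endothelium list to -0.28, the smooth muscle list within diets to 0.0412, and the enteroendocrine list to 0.0176 and, within diets, 0.0150. Without fish A056 the enterocyte list had 0.37 and, within diets, 0.31. Without its 2 farthest fish the fibroblast and matrix list had -0.37, and with run means subtracted the enteroendocrine list had 0.0204 within diets. The other 425 of 486 alternatives kept sign and side of the threshold. The causes were not tested. No paired analysis was possible because fish numbers differ between diets and replicate numbers only name the fish. The depth, at 9666 counts or more for *ckba*, was not the limit; the 95% intervals of about 0.16 log2 units to each side set what could be seen.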
